A study of Homo sapiens with 6 samples.

Results

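The SLC25 genes encode the mitochondrial carriers, the largest family of transporters of the inner mitochondrial membrane, and the uncoupling proteins UCP1, UCP2 and UCP3 belong to the same family. Their mRNAs were followed in SK-N-BE(2) cells, an established human neuroblastoma line with amplified MYCN that the labels trace to bone marrow. Cells received 1 µM NEN or the solvent DMSO alone for 24 h, with 3 libraries per treatment that the labels call biological replicates. NEN is given in the labels as an abbreviation; in published neuroblastoma work it stands for niclosamide ethanolamine, a compound that carries protons across the inner membrane, and that identity is background here. All gene names of the form SLC25A followed by a number, together with UCP1, UCP2 and UCP3, were taken. This gave 51 genes of the 35130 names in the tables, 48 of them SLC25A names, and this rule on names uses no measured value.

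Mitochondrial carriers move metabolites between cytosol and matrix. ADP/ATP carriers export ATP in exchange for ADP, using the membrane potential, and the phosphate carrier brings in the phosphate for ATP synthesis together with a proton. Others carry amino acids, di- and tricarboxylates, nucleotides, cofactors and iron, and the uncoupling proteins are best known for UCP1, which lets protons back into the matrix to make heat in brown fat. Members were grouped by the substrate they are known for, and 8 members without an assignment here were kept as a group of their own.

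Values are TPM, a share of all transcripts that is scaled by transcript length, so that levels of different genes can be compared. The names in the tables summed to 929054 to 929189 TPM in the NEN libraries and 932109 to 933500 TPM in the DMSO libraries. Sequencing depth is unknown, since TPM keeps no read counts. All 10 markers of adrenergic neuroblastoma passed the level filter, and 6 of them were higher in NEN. Blood markers summed to 0.38 to 0.84 TPM in NEN libraries and 0.66 to 1.92 TPM in DMSO libraries over 8 genes, 3 of which were at 0 in every library. The 8 stromal markers summed to 37.9 to 43.5 TPM in NEN libraries and 24.6 to 28.7 TPM in DMSO libraries; PDGFRB and ACTA2 passed the test upward. The other 4 tested stromal markers did not pass, with fold changes of -0.49 for COL1A2, -0.46 for PDGFRA, -0.34 for DCN and -0.05 for COL1A1 on the log2 scale, and the median of the list was -0.19. Their part in the results was not tested. In bulk RNA, fewer cells of a type and less RNA per cell cannot be told apart. The 6 epithelial markers summed to 2.89 to 6.14 TPM in NEN libraries and 3.59 to 6.22 TPM in DMSO libraries, and KRT5 and KRT14 were at 0 throughout.

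The carrier mRNAs did not move as one block after NEN. Of the 51 members, 38 averaged 1 TPM or more across all 6 libraries and were tested, and 11 of these passed an adjusted p of 0.05 in limma, 3 higher in NEN and 8 lower. Among all 12576 genes tested, 30.0% were called, 13.5% higher and 16.5% lower. The members gave 28.9% called, 7.89% higher and 21.1% lower, so the total share was close to that of all genes. The 3 that were higher were SLC25A6, SLC25A36 and SLC25A23. Those lower included SLC25A4, SLC25A10, SLC25A17, SLC25A32, SLC25A35, SLC25A44 and SLC25A46. The median fold change of the 38 members was -0.035 on the log2(TPM + 1) scale, beside -0.025 (NEN minus DMSO) for all tested genes. In 23 of the 38 tested members the 2 groups did not overlap, with NEN above DMSO in 12 and below it in 11, where 46.8% of all tested genes showed no overlap, 21.8% with NEN above and 25.0% with NEN below.

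**Figure D1:**
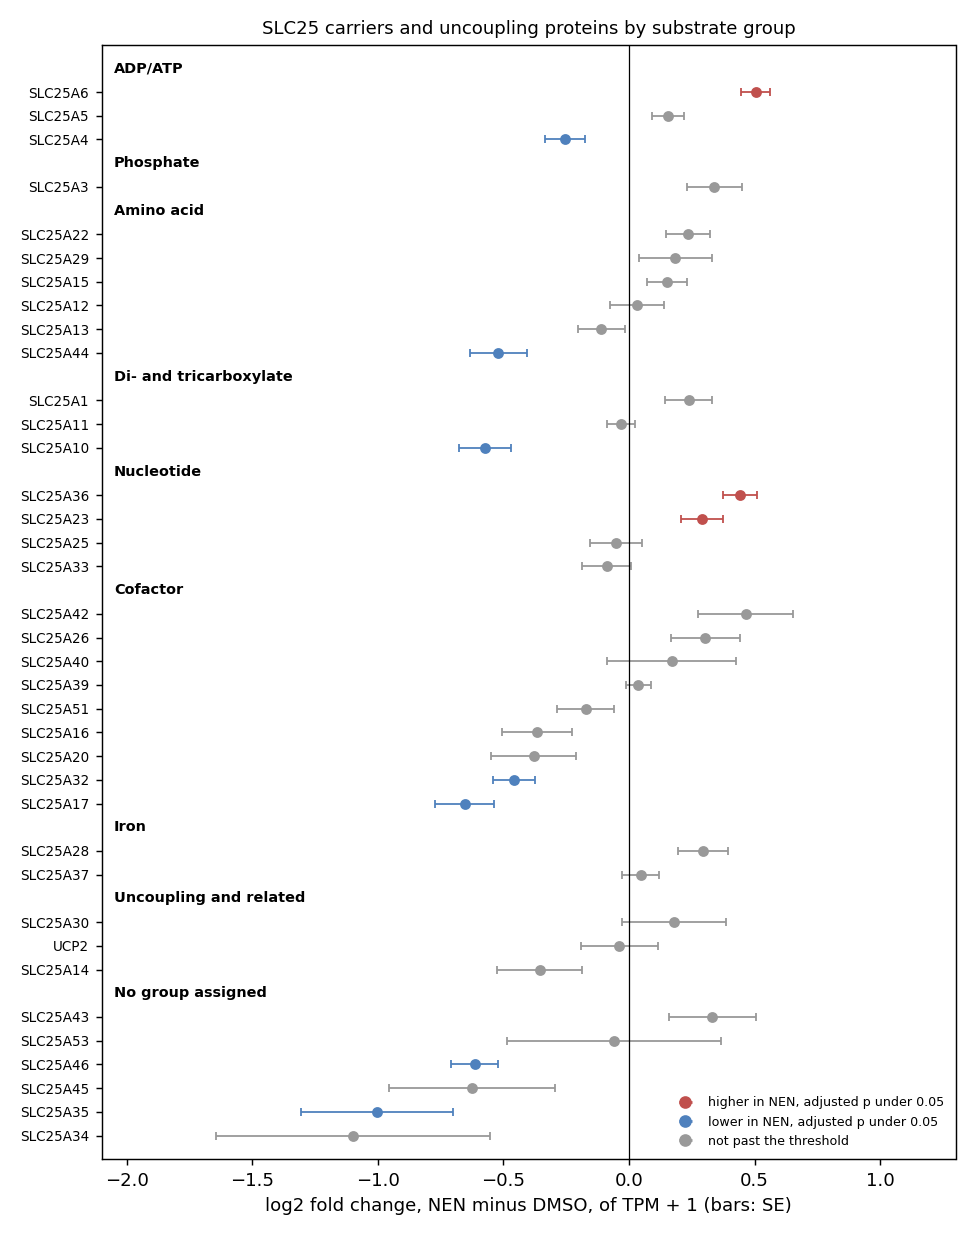
Log2 fold changes (NEN minus DMSO, of TPM + 1, x axis) of the tested members described here with bars of 1 SE, ordered within each substrate group (y axis). Red points are the 3 members higher in NEN, blue points are lower, and grey points did not pass the threshold; SLC25A34 and SLC25A35 have the lowest fold changes and wide bars.

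The ADP/ATP carriers were among the most abundant members, and 3 of the 4 were expressed. The coding sequences of these paralogs differ at many positions, which matters here because the reads were assigned to transcripts by short exact matches. The first 120 coding bases of the 3 expressed paralogs are shown to let their likeness be seen, with capitals at the 34 positions where they are not all the same. They come from GENCODE release 29 transcripts (GRCh38), whose longest open reading frame was taken; SLC25A6 and SLC25A5 lie on chromosome X and SLC25A4 on chromosome 4.
SLC25A6: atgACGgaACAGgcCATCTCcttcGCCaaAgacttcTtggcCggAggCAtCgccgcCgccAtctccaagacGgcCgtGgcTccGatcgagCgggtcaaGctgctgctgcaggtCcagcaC
SLC25A5: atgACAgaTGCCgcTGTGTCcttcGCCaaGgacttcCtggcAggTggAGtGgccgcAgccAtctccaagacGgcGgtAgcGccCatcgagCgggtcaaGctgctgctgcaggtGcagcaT
SLC25A4: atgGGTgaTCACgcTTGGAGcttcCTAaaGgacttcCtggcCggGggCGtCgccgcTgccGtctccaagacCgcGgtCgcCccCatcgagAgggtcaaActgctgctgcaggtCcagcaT
Over 897 coding bases, SLC25A6 and SLC25A5 were identical at 78.8%, SLC25A6 and SLC25A4 at 77.9% and SLC25A5 and SLC25A4 at 77.3%. The longest identical stretch of any pair was 29 bases, between SLC25A6 and SLC25A5. Stretches of 31 bases found in transcripts of another gene made up 2.3% of those of SLC25A6, 31.8% of those of SLC25A5 and 1.6% of those of SLC25A4. For SLC25A5 the gene sharing most of them was its antisense neighbour SLC25A5-AS1, and whether its reads were kept apart is not stated in the labels. The names of 9 SLC25A5 pseudogenes together held at most 0.62 TPM in any library, and those of 6 SLC25A6 pseudogenes at most 0.23 TPM.

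SLC25A6 (ANT3), the ADP/ATP carrier found in most tissues, was the member with the smallest adjusted p. It had 1056, 995 and 1013 TPM in the NEN libraries, against 684, 711 and 766 TPM in the DMSO libraries. Every NEN library lay above every DMSO library. The mean was 1021 ± 31.3 TPM in NEN and 720.1 ± 41.7 TPM in DMSO (SD, n = 3 each), a ratio of 1.42, and the fold change was 0.51 ± 0.06 on the log2 scale (SE, adjusted p = 0.00134).

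SLC25A5 (ANT2), the form known from dividing cells, had 709, 675 and 682 TPM in the NEN libraries, against 671, 582 and 603 TPM in the DMSO libraries. The groups did not overlap, but the lowest NEN library lay only just above DMSO replicate 1. Its fold change of 0.16 ± 0.06 did not pass the threshold (adjusted p = 0.106). Without DMSO replicate 1 it was 0.22 and passed (adjusted p = 0.0123).

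SLC25A4 (ANT1), the form of heart and skeletal muscle, was far lower in level than the other two. It had 41.2, 38.2 and 37.3 TPM in the NEN libraries, against 49.6, 47.0 and 43.4 TPM in the DMSO libraries, without overlap. Its fold change was -0.26 ± 0.08 (adjusted p = 0.0454), a value close to the threshold. That call was lost on leaving out any 1 library other than DMSO replicate 3, with fold changes from -0.30 to -0.21 and adjusted p-values from 0.0608 to 0.136. It was also lost with median-ratio scaling (adjusted p = 0.0564), with quantile normalization (adjusted p = 0.0685) and after removal of length and GC trends (adjusted p = 0.0795). SLC25A31, the testis form, was listed at 0 in all 6 libraries.

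Together the ADP/ATP carriers summed to 1806, 1708 and 1732 TPM in the NEN libraries, against 1404, 1340 and 1412 TPM in the DMSO libraries. SLC25A6 made up 58.5%, 58.3% and 58.5% of that sum in NEN, against 48.7%, 53.1% and 54.2% in DMSO. The share of SLC25A5 was 39.3%, 39.5% and 39.4% in NEN, against 47.8%, 43.4% and 42.7% in DMSO, and that of SLC25A4 averaged 2.22 ± 0.06% and 3.37 ± 0.26%. The difference in the SLC25A5 share, NEN minus DMSO, was -5.26 percentage points, and -3.69 points without DMSO replicate 1, the library with the highest SLC25A5 share. These shares and sums are given as descriptions without a test. After removal of length and GC trends the fold change was 0.26 for SLC25A6 (adjusted p = 0.00727 in limma) and 0.19 for SLC25A5. Those lie closer together than the 0.51 and 0.16 of the main test. The shares were not computed again with these trends removed, so their dependence on them was not tested.

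**Figure D2:**
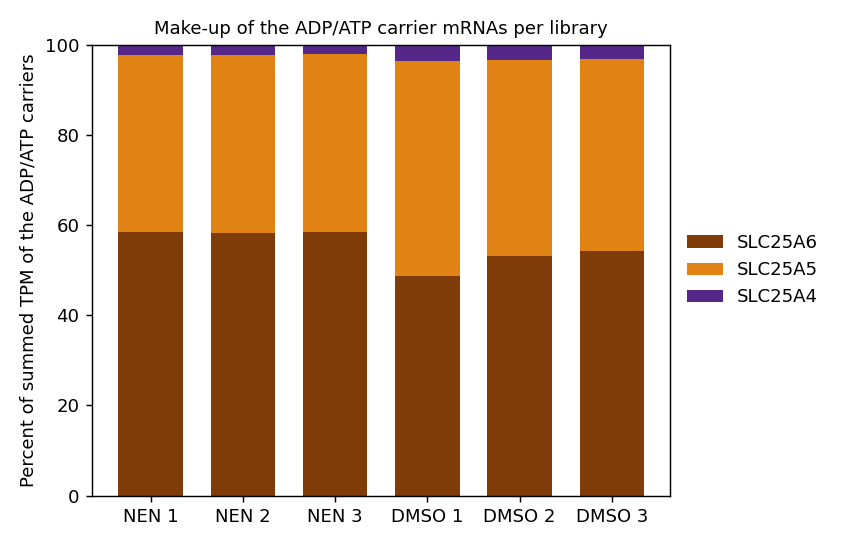
Percent of the summed TPM of the ADP/ATP carriers (y axis) taken by each paralog in each library (x axis, 3 NEN and 3 DMSO libraries); SLC25A31 is at 0 and not visible. The SLC25A6 segment ends between 58.3% and 58.5% in NEN libraries and between 48.7% and 54.2% in DMSO libraries.

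SLC25A3, the phosphate carrier, was the most abundant member. It had 1488, 1547 and 1340 TPM in the NEN libraries, against 975, 1213 and 1288 TPM in the DMSO libraries. The groups did not overlap, though NEN replicate 3 and DMSO replicate 3 lay close together. The fold change was 0.34 ± 0.11 and missed the threshold (adjusted p = 0.0529). It passed without DMSO replicate 3 (0.42), with a minimum of 5 TPM (0.34), with median-ratio scaling (0.37) and after removal of length and GC trends (0.40). SLC25A3 and the 3 expressed ADP/ATP carriers held 74.0% to 75.0% of the summed TPM of the family in NEN libraries and 67.5% to 70.9% in DMSO libraries. The whole family summed to 4392, 4348 and 4152 TPM in NEN, against 3525, 3653 and 3809 TPM in DMSO, with no overlap. That was 0.463 ± 0.014% of all listed TPM in NEN and 0.393 ± 0.016% in DMSO. Most of the difference lay in 2 genes, SLC25A3 (means of 1458 TPM in NEN and 1159 TPM in DMSO) and SLC25A6 (1021 and 720 TPM). The mean sum of the nucleotide carriers had a ratio, NEN over DMSO, of 1.217, that of the amino acid carriers 0.986 and that of the cofactor carriers 0.926.

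**Figure D3:**
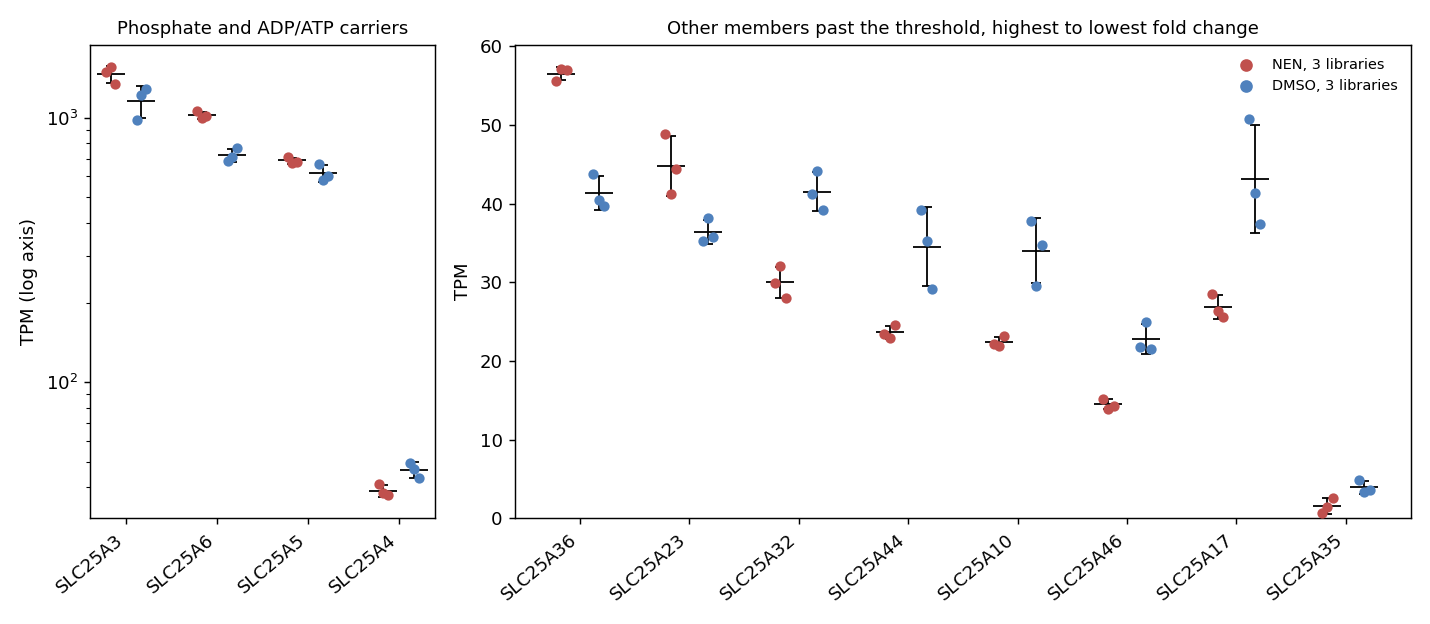
TPM of the phosphate and ADP/ATP carriers (left, log axis) and of the other members past the threshold described here (right, linear axis from 0), with 3 libraries per treatment as points and mean ± SD as black lines. SLC25A36 and SLC25A23 are higher in NEN (red) and the others on the right lower; the left panel shows SLC25A6 higher and SLC25A4 lower in NEN.

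Among the nucleotide carriers, 4 of 6 were tested and 2 were higher. SLC25A36, which carries pyrimidine nucleotides, had 55.5, 57.1 and 56.9 TPM in the NEN libraries, against 43.8, 40.5 and 39.7 TPM in the DMSO libraries. The groups were well apart, and the fold change was 0.44 ± 0.07 (adjusted p = 0.00353). SLC25A33, the other pyrimidine nucleotide carrier, averaged 11.1 ± 0.28 TPM in NEN and 11.8 ± 0.70 TPM in DMSO (fold change -0.09, adjusted p = 0.536). SLC25A23, a calcium-regulated carrier that exchanges ATP-Mg for phosphate, had 48.8, 41.2 and 44.4 TPM in NEN, against 35.3, 38.1 and 35.8 TPM in DMSO. Its fold change was 0.29 ± 0.08 (adjusted p = 0.0369). The call was lost on leaving out any 1 library except NEN replicate 2, with fold changes from 0.23 to 0.32 and adjusted p-values from 0.0604 to 0.108, and after removal of length and GC trends (0.19, adjusted p = 0.103). SLC25A25, a related ATP-Mg carrier, averaged 11.4 ± 0.75 TPM in NEN and 11.8 ± 0.74 TPM in DMSO, and SLC25A24 and SLC25A41 did not exceed 0.53 TPM in any library.

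Of the 11 cofactor carriers, 10 were tested and 3 were lower. SLC25A17, the peroxisomal carrier of coenzyme A and other nucleotide cofactors, had 28.6, 26.4 and 25.6 TPM in the NEN libraries, against 50.8, 41.3 and 37.4 TPM in the DMSO libraries. SLC25A32, which brings folate into mitochondria, had 29.9, 32.0 and 28.1 TPM in NEN, against 41.2, 44.2 and 39.2 TPM in DMSO. In both, the groups did not overlap. The fold change was -0.65 ± 0.12 for SLC25A17 (adjusted p = 0.00671) and -0.46 ± 0.08 for SLC25A32 (adjusted p = 0.00684). For SLC25A32, 78.0% of its 31-base stretches in GENCODE also occurred in transcripts of other genes, the most in a clone-named entry. Over the other names in the tables alone that share was 16.0%, against 1.0% for SLC25A17. The level of SLC25A32 is therefore less certain than that of SLC25A17.

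The cofactor carriers that follow did not pass. SLC25A39, a glutathione carrier with the highest level in this group, averaged 254 ± 7.49 TPM in NEN and 248 ± 5.44 TPM in DMSO (adjusted p = 0.607). SLC25A40, its paralog, had 21.97, 10.5 and 11.3 TPM in NEN, against 10.96, 13.4 and 12.1 TPM in DMSO. NEN replicate 1 stood apart from the other 5 libraries, and without it the fold change of 0.17 became -0.15. SLC25A51, the NAD carrier, averaged 15.1 ± 1.45 TPM in NEN and 17.1 ± 1.62 TPM in DMSO (adjusted p = 0.293). It shares 30.0% of its 31-base stretches with other listed names, the most with its near copy SLC25A52, which was listed at 0 in every library. SLC25A16, linked to coenzyme A, and SLC25A20, the carnitine-acylcarnitine carrier, had all NEN libraries below all DMSO libraries (-0.37 and -0.38, adjusted p = 0.0884 and 0.131). SLC25A26, the S-adenosylmethionine carrier, and SLC25A42, a coenzyme A carrier, had all NEN libraries above them (0.30 and 0.46, adjusted p = 0.136 and 0.106).

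Of the amino acid carriers, 6 of 9 were tested and 1 was lower. SLC25A44, a carrier of branched-chain amino acids, had 23.4, 22.9 and 24.5 TPM in the NEN libraries, against 39.2, 35.2 and 29.2 TPM in the DMSO libraries. The NEN libraries were alike, while the DMSO libraries spread widely but stayed above them, and the fold change was -0.52 ± 0.11 (adjusted p = 0.0137). Both aspartate/glutamate carriers of the malate-aspartate shuttle missed the threshold. SLC25A13 (citrin) averaged 59.4 ± 2.79 TPM in NEN and 64.4 ± 7.53 TPM in DMSO (adjusted p = 0.418), and SLC25A12 (aralar) 14.6 ± 1.60 TPM in NEN and 14.2 ± 0.41 TPM in DMSO (adjusted p = 0.856).

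SLC25A22, a glutamate carrier, had 49.7, 43.6 and 46.8 TPM in NEN, against 41.2, 36.0 and 41.5 TPM in DMSO, without overlap (0.24 ± 0.09, adjusted p = 0.0809), and passed with quantile normalization (adjusted p = 0.0439). After removal of length and GC trends the fold change of SLC25A22 was 0.024 (adjusted p = 0.857 in limma). SLC25A15, which exchanges ornithine and citrulline, averaged 24.3 ± 0.66 TPM in NEN and 21.8 ± 1.03 TPM in DMSO (adjusted p = 0.194), also without overlap. SLC25A29, a carrier of basic amino acids, averaged 38.1 ± 1.17 TPM in NEN and 33.9 ± 6.92 TPM in DMSO (adjusted p = 0.378), and DMSO replicate 1 was the lowest library, at 26.1 TPM. SLC25A38, the glycine carrier needed for heme synthesis, lay just under the filter with a mean of 0.99 TPM. It had 0.23, 1.05 and 0 TPM in NEN, against 1.23, 1.21 and 2.23 TPM in DMSO.

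The di- and tricarboxylate carriers had 1 of 3 tested members lower. SLC25A10, which exchanges malate or succinate for phosphate, had 22.2, 21.9 and 23.2 TPM in the NEN libraries, against 37.8, 29.6 and 34.8 TPM in the DMSO libraries. The groups did not overlap, and the fold change was -0.57 ± 0.10 (adjusted p = 0.00647). In GENCODE, 43.3% of the 31-base stretches of SLC25A10 also lie in 1 clone-named gene, which is not among the names of the tables. SLC25A11, the 2-oxoglutarate/malate carrier of the malate-aspartate shuttle, was nearly level at 72.0 ± 1.70 TPM in NEN and 73.6 ± 1.70 TPM in DMSO (adjusted p = 0.714). SLC25A1, the citrate carrier that supplies cytosolic acetyl-CoA, had 57.5, 63.2 and 59.2 TPM in NEN, against 45.2, 50.8 and 56.9 TPM in DMSO. Its fold change of 0.24 ± 0.09 missed the threshold (adjusted p = 0.0997). It passed without DMSO replicate 3 (0.32, adjusted p = 0.0458) and was -0.03 after removal of length and GC trends. The names of 5 SLC25A1 pseudogenes summed to as much as 11.63 TPM in a library (DMSO replicate 3), where SLC25A1P5 alone had 11.43 TPM. Stretches of 31 bases found in transcripts of another gene made up 0.6% of those of SLC25A1. SLC25A21, the oxodicarboxylate carrier, was at 0 in 3 of the 6 libraries and did not exceed 1.23 TPM.

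Neither iron carrier passed limma's test after adjustment; 1 of the 2 had an unadjusted p under 0.05. SLC25A28 (mitoferrin-2) had 27.2, 26.3 and 23.0 TPM in NEN, against 19.4, 20.0 and 22.4 TPM in DMSO, without overlap (0.30 ± 0.10, adjusted p = 0.0626). It passed with median-ratio scaling (adjusted p = 0.0491). SLC25A37 (mitoferrin-1), the form of red cell precursors, averaged 37.9 ± 2.05 TPM in NEN and 36.6 ± 0.92 TPM in DMSO (adjusted p = 0.669).

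Of the uncoupling proteins, UCP2 alone was abundant, and none of the 3 tested genes of this group passed in limma, with 0 at an unadjusted p under 0.05. UCP2, the widely expressed form, had 108, 120 and 124 TPM in the NEN libraries, against 155, 114 and 98.996 TPM in the DMSO libraries. The groups overlapped because the DMSO libraries held both the highest and the lowest value. The fold change was -0.04 ± 0.15 (adjusted p = 0.875), and without DMSO replicate 1 it was 0.14 (adjusted p = 0.271). UCP1, the form of brown fat, was listed at 0 in 5 of the 6 libraries, and UCP3, the form of skeletal muscle, had 0.63 to 0.79 TPM in NEN and 0.59 to 1.04 TPM in DMSO. SLC25A14 (UCP5) averaged 6.87 ± 1.41 TPM in NEN and 9.003 ± 1.27 TPM in DMSO (adjusted p = 0.155), and SLC25A30 (KMCP1) 6.61 ± 0.94 TPM in NEN and 5.83 ± 1.68 TPM in DMSO (adjusted p = 0.549).

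SLC25A27 (UCP4), the form known from brain, did not reach the filter, with a mean of 0.94 TPM, and its groups did not overlap. It had 2.42, 0.49 and 2.58 TPM in the NEN libraries, against 0, 0.12 and 0.03 TPM in the DMSO libraries. With no filter on low values the fold change was 1.33 ± 0.36 and missed the threshold (adjusted p = 0.0612). This gene was singled out after its values were seen.

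**Figure D4:**
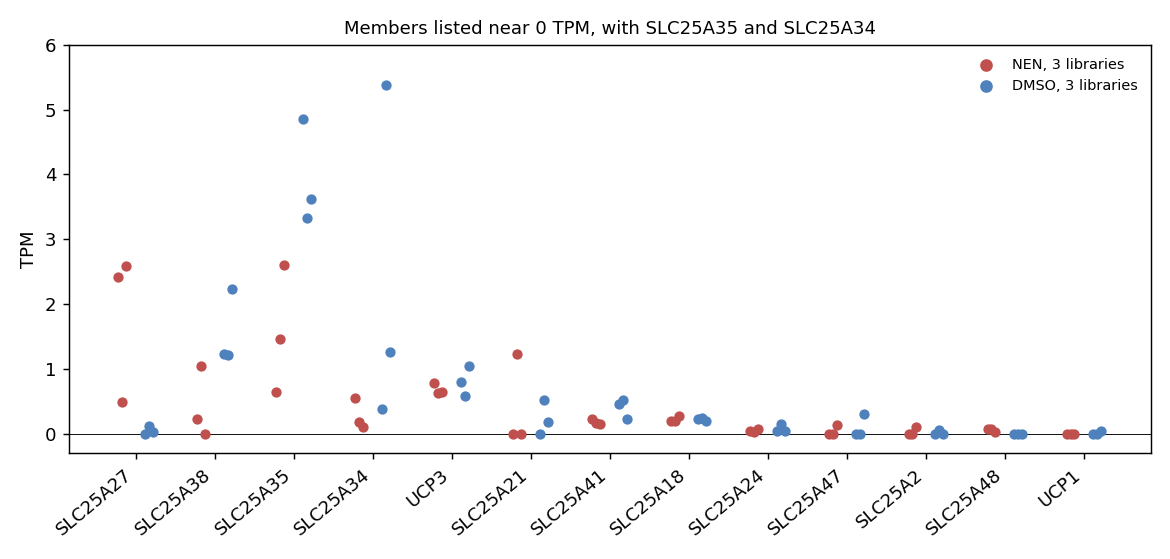
TPM (y axis) of the 11 low members with any value above 0, next to SLC25A35 and SLC25A34 for scale, with 1 point per library (red NEN, blue DMSO). SLC25A27 lies at 0.49 to 2.58 TPM in NEN and at most 0.12 TPM in DMSO, and SLC25A34 has 1 DMSO library at 5.38 TPM.

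Of the 8 members without a substrate group, 6 were tested and 2 were lower. SLC25A46, an outer membrane protein known for its part in mitochondrial fission and fusion, had 15.2, 14.0 and 14.3 TPM in the NEN libraries, against 21.8, 24.9 and 21.6 TPM in the DMSO libraries. The gap between the groups was wider than the spread within either, and the fold change was -0.62 ± 0.10 (adjusted p = 0.00385). SLC25A35 had 0.64, 1.46 and 2.61 TPM in NEN, against 4.85, 3.33 and 3.61 TPM in DMSO (-1.003 ± 0.30, adjusted p = 0.0434). This call was lost on leaving out any 1 library except NEN replicate 3, with fold changes from -1.09 to -0.72 and adjusted p-values from 0.0816 to 0.113, and with a pseudocount of 0.1 (adjusted p = 0.0539). SLC25A35 shares 29.2% of its 31-base stretches with other listed names, the most with its neighbour RANGRF.

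SLC25A34 was the 1 tested member that passed the filter through a single group, owing to DMSO replicate 2. It had 0.55, 0.18 and 0.10 TPM in NEN, against 0.38, 5.38 and 1.26 TPM in DMSO (-1.10 ± 0.55, adjusted p = 0.17). SLC25A43, SLC25A45 and SLC25A53 had adjusted p-values from 0.187 to 0.932. The other members below the filter, SLC25A2, SLC25A18, SLC25A47 and SLC25A48, did not exceed 0.31 TPM in any library.

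Promoters of the members were searched for 4 motifs in the RefSeq table (GRCh38.p14; 250 bases before to 50 after the gene start), on both strands. A promoter was found for 43 of the 51 members, 54 windows in all. The E-box CACGTG, the sequence bound by MYC-family proteins such as MYCN, was in 9 of them, 16.7%, and in 7.25% of 35087 promoters of all genes. The NRF1 motif was in 0 and in 1.24% of all, the ATF4 element TGATGNAA in 1 (SLC25A11) and in 3.62%, and the E2F motif, TTTCCCGC or TTTGGCGC, in 2 (SLC25A11 and SLC25A17) and in 2.27%. CACGTG reads the same on both strands; overlaps between different motifs were not searched for. Of the members with an E-box, SLC25A13, SLC25A22, SLC25A26, SLC25A33 and SLC25A51 did not pass the threshold, and SLC25A31 and SLC25A38 were not tested. Among the members past the threshold with a promoter in the table, SLC25A36 and SLC25A46 hold an E-box, and their mRNAs moved in opposite directions. Both windows are shown for that reason, on the + strand and with the E-box in capitals, SLC25A36 at chr3:140941586-140941885 and SLC25A46 at chr5:110738757-110739056.
SLC25A36: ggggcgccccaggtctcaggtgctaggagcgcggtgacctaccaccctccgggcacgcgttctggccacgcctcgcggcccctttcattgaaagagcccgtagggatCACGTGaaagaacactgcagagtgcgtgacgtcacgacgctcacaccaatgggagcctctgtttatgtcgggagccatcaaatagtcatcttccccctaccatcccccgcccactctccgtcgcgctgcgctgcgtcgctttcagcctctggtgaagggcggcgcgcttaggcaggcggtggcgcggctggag
SLC25A46: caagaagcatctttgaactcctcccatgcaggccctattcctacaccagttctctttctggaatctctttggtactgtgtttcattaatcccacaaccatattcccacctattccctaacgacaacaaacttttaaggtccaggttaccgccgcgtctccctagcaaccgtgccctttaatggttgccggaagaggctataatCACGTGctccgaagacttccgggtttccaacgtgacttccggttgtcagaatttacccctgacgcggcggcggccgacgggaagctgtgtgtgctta
The E-box begins 143 bases before the gene start in SLC25A36, which was higher in NEN, and 47 bases before it in SLC25A46, which was lower. A match in these letters is a description and does not show binding.

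Other mitochondrial transport genes came from lists of 30 genes outside the name rule, shuttle enzymes among them. They gave 3 higher and 4 lower among 28 tested (median fold change -0.12). Of all tested genes, 13.5% were higher and 16.5% lower. All 4 that were lower and 1 of those higher were sideroflexins, a family of inner membrane proteins that includes the serine transporter SFXN1. SFXN3 had 39.5, 39.6 and 41.6 TPM in the NEN libraries, against 24.5, 24.4 and 23.9 TPM in the DMSO libraries (0.70 ± 0.07, adjusted p = 0.000778). SFXN2 had 5.71, 5.69 and 8.27 TPM in NEN, against 11.9, 15.1 and 16.3 TPM in DMSO (-1.04 ± 0.18, adjusted p = 0.00534). These paralogs thus moved in opposite directions, each with groups that did not overlap.

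SFXN5 had 12.2, 12.9 and 9.60 TPM in NEN, against 21.97, 16.3 and 17.0 TPM in DMSO (-0.63 ± 0.16, adjusted p = 0.0218), a call lost without NEN replicate 3 (-0.51, adjusted p = 0.0636). SFXN1 averaged 101 ± 3.86 TPM in NEN and 117 ± 5.08 TPM in DMSO, and SFXN4 76.0 ± 2.28 TPM in NEN and 86.0 ± 1.11 TPM in DMSO. Their fold changes were -0.21 and -0.18 (adjusted p = 0.0371 and 0.0469). Both calls were lost with median-ratio scaling and on leaving out any 1 library, except that SFXN1 kept its call without DMSO replicate 3. SFXN4, MPC1 and MPC2 are named although the rule for named genes does not reach them, after their values were seen.

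The mitochondrial pyruvate carrier subunits MPC1 and MPC2 did not pass (adjusted p = 0.454 and 0.954). Of the shuttle enzymes, the cytosolic aminotransferase GOT1 averaged 115 ± 4.86 TPM in NEN and 95.2 ± 2.93 TPM in DMSO (0.27 ± 0.06, adjusted p = 0.0131), and the call was lost without NEN replicate 1 (adjusted p = 0.0503). The mitochondrial malate dehydrogenase MDH2 averaged 372 ± 23.4 TPM in NEN and 305 ± 13.2 TPM in DMSO (0.29 ± 0.06, adjusted p = 0.0143), lost without DMSO replicate 2 (adjusted p = 0.0546). Their counterparts in the other compartment, GOT2 and MDH1, had fold changes of -0.21 and -0.13 that missed the threshold (adjusted p = 0.0652 and 0.133). In the outer membrane list 0 of 5 passed, with VDAC3 nearest (-0.15, adjusted p = 0.0609); 1 of the 5 had an unadjusted p under 0.05. None of 7 tested calcium transport genes and none of 3 ABC transporters passed, with 0 at an unadjusted p under 0.05 in limma. MTCH1 passed after removal of length and GC trends (-0.20, adjusted p = 0.0326) and ABCB10 without DMSO replicate 1 (-0.39, adjusted p = 0.0409).

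**Figure D5:**
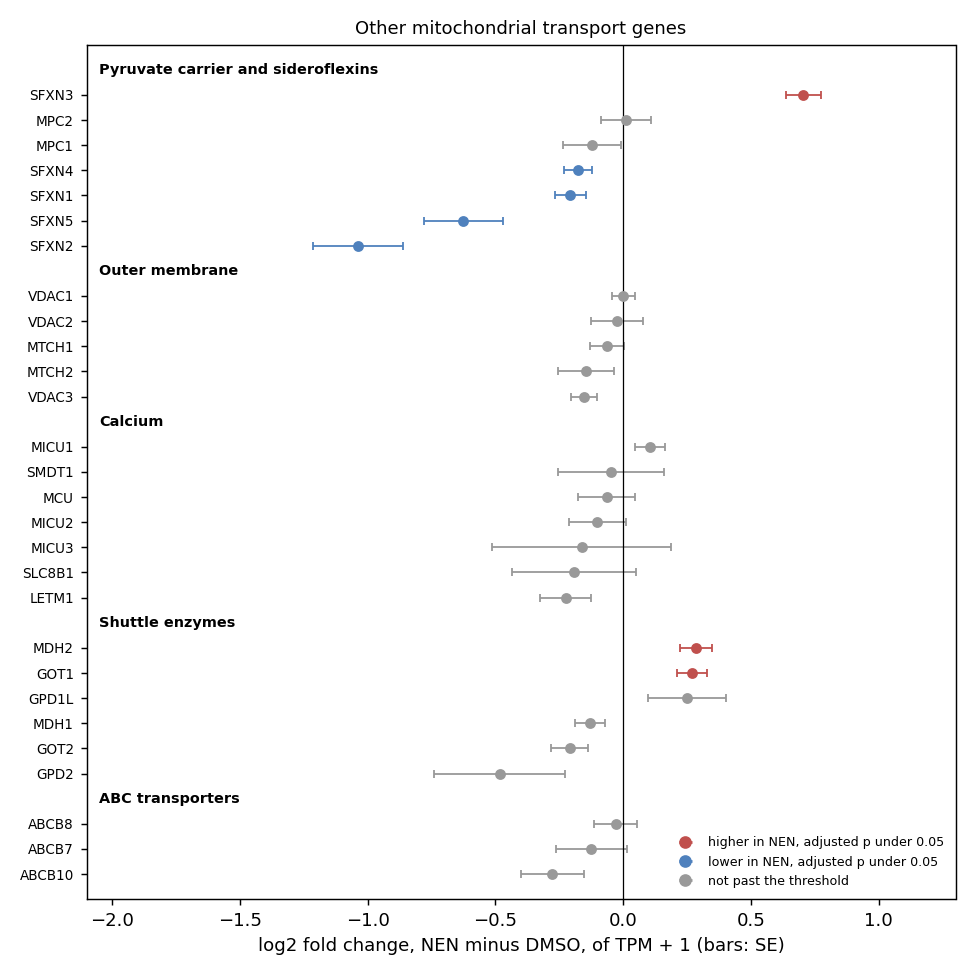
Log2 fold changes (NEN minus DMSO, of TPM + 1, x axis) of the 28 tested genes of other mitochondrial transport lists with bars of 1 SE, by list (y axis); red is higher in NEN, blue lower, grey not past the threshold. SFXN3 lies at 0.70 and SFXN2 at -1.04, while the outer membrane, calcium and ABC lists hold grey points alone.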

How the data were processed

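The authors deposited TPM for each library, made with kallisto with hg19 named as the build, per the submitters' processing notes; versions and the step from transcripts to gene names are not stated. The labels' protocols name Trizol extraction and give polyA capture or rRNA removal without saying which. Depth is unknown, so no counting intervals are given. The labels call the libraries biological replicates without naming separate cultures, so p-values measure the spread between these libraries.

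Genes averaging 1 TPM or more were tested as log2(TPM + 1), a scale that understates changes of low genes, with limma 3.58.1 in R 4.3.3 (group alone, trend and robust settings, two-sided, Benjamini-Hochberg over 12576 genes, threshold 0.05). The rule for members reads names alone, but the family and the lists were chosen with earlier results of these data known. Every member past the threshold or with a mean of at least 10 TPM is named, as are UCP1 to UCP3 and the 4 genes of each other list with the smallest adjusted p where the text needs them; the other members were added to account for the family. The counts cover all members, of which 1 is not reported here by name. CCDC109B stands for MCUB. Stretches of 31 bases were compared on both strands over GENCODE release 29 transcripts. Length and GC trends (loess, span 0.3; 93.4% of tested genes) were removed in an alternative chosen after seeing the data. Figures were drawn with matplotlib 3.10.9.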

Additional observations from a re-analysis of the deposited data

How the results depend on the processing

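Of the 11 called members, 8 kept their call in all 15 alternatives. SLC25A4 lost it in 11 of 15, SLC25A23 in 9 of 15 and SLC25A35 in 9 of the 14 in which it was tested. All of these 3 lost it with no filter, with the replicate block and with plain limma settings. Carrier members called higher numbered 3, and 5 with median-ratio scaling (SLC25A3 and SLC25A28 added). On leaving out 1 library they numbered 2 to 4, and the 4 without NEN replicate 2 include SLC25A27. That gene reached 1 TPM in the NEN group alone, with means of 1.83 TPM in NEN and 0.049 TPM in DMSO over all libraries. It thus entered the test through the group where it is high, and that call gives no support for a rise. Those called lower numbered 8, and 6 to 7 on leaving out 1 library. Other transport genes called lower numbered 4, and 2 with no filter, median-ratio scaling, quantile normalization or plain limma settings, and 1 to 3 on leaving out 1 library; those called higher numbered 3, and 2 to 3. For the sums, leaving out 1 library gave differences between groups of 566.7 to 708 TPM for the family (635 TPM with all libraries), 335 to 384 TPM for the ADP/ATP carriers (363 TPM) and -6.22 to -3.69 points for the SLC25A5 share. Without SLC25A5 the ADP/ATP difference was 293 TPM.

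Some uncalled fold changes changed sign, among them SLC25A1 (0.237 as reported) and SLC25A40 (0.171). Without NEN replicate 1 they were -0.146 for SLC25A40 (highest 0.354, without NEN replicate 2), 0.017 for UCP2 and 0.0 for ABCB8; without NEN replicate 2, -0.037 for SLC25A12 (highest 0.112, without NEN replicate 3) and 0.024 for VDAC2; without NEN replicate 3, 0.009 for ABCB8 (lowest -0.098, without NEN replicate 2); without DMSO replicate 1, 0.14 for UCP2 and 0.088 for VDAC2 (lowest -0.179 and -0.093, without DMSO replicate 3). With quantile normalization they were 0.042 for SLC25A11, 0.036 for UCP2, 0.022 for MTCH1, 0.012 for VDAC2 and 0.019 for ABCB8, and with median-ratio scaling 0.003 for VDAC2. After removal of length and GC trends they were -0.089 for SLC25A39, -0.03 for SLC25A1, 0.062 for VDAC2 and 0.058 for MICU2. The cause was not tested.

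Same-numbered libraries did not deviate together (correlations of 0.012, -0.008 and -0.028 over 12576 genes), so the numbers were not taken as pairs. With the replicate block, 2 carrier members were higher and 6 lower, and 3 other transport genes were higher and 3 lower; the differences in sums (635 TPM, 363 TPM and -5.26 points) cannot change under the block, by its construction.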
